A study of Mus musculus with 9 samples.

Results

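The NR4A receptors Nr4a1 (also called Nur77), Nr4a2 (Nurr1) and Nr4a3 (Nor1) form 1 subfamily of the nuclear receptors, and their transcripts were followed in MA-10, a line of steroid-making cells derived from a Leydig cell tumour of the mouse. The members were the 3 genes of that name among the 19938 genes measured, each represented by the only probe (transcript cluster) that carries its symbol. The cells were kept in serum-free medium for 1.5 h with the DMSO vehicle (control, 3 arrays), with 10 µM forskolin (3 arrays) or with 10 µM forskolin and 1 mM AICAR (3 arrays, called the AICAR arrays here). The diterpene forskolin switches on adenylyl cyclase, so that cAMP accumulates, while AICAR is taken up and turned into an AMP mimic that activates the kinase AMPK. The design asks how forskolin changed the transcripts and how AICAR altered that change. The treatment labels and the protocol give DMSO for the control cells, while their titles say that they had no treatment. Were the titles right, vehicle and treatment could not be told apart in the differences from control. All arrays come from 1 tumour cell line, all AICAR arrays also received forskolin, and AICAR alone was not analysed here. The labels do not state whether the 3 replicates of a group came from independent cultures, and a p-value here covers no more than the spread among the arrays, which may be technical.

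NR4A receptors are orphan receptors, whose ligand pocket is filled by side chains of the protein, so that their activity depends largely on how much of them is made and on their modification. They bind DNA as monomers at the NBRE element and as dimers at the NurRE element, and Nr4a1 and Nr4a2 can also pair with the retinoid X receptors. Their genes belong to the early response genes, which are induced within minutes to hours without new protein synthesis. In Leydig cells luteinizing hormone raises cAMP and induces Nr4a1, which acts on promoters of steroidogenic genes such as Star.

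The promoters of the members are shown because cAMP reaches such genes through CREB at the element TGACGTCA or its core TGACG. The sequences are the 250 bases before the 1 start that the RefSeq promoter table (GRCm38.p6) lists for each gene, read on the gene's strand, and capitals mark TGACG on that strand or its complement CGTCA. The sequence of Nr4a1 lies at chr15:101266596-101266845 (plus strand), Nr4a2 at chr2:57124004-57124253 (minus strand) and Nr4a3 at chr4:48045055-48045304 (plus strand). In the gene annotation Nr4a1 spans chr15:101253902-101274795 and Nr4a3 chr4:48045078-48086447. The sequence of Nr4a1 thus lies inside the annotated gene, as does most of that of Nr4a3.
Nr4a1: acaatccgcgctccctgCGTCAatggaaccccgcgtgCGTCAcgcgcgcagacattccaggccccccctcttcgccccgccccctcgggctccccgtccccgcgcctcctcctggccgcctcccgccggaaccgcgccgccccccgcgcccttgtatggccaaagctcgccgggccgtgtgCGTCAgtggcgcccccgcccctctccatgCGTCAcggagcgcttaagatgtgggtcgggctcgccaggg
Nr4a2: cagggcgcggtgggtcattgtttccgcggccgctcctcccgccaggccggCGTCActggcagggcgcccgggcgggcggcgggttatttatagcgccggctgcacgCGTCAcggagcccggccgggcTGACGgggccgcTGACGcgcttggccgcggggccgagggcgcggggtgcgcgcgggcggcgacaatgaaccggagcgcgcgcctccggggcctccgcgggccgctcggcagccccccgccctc
Nr4a3: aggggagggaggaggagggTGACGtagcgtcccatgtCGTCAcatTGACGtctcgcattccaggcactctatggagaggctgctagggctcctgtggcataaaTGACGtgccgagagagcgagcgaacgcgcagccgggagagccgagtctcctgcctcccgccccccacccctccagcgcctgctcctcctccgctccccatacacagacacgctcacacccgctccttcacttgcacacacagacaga
Each of the 3 promoters held 4 matches to TGACG. In Nr4a1 they began at bases 18, 38, 182 and 211, counted from 1 at the 5′ end, and all lay on the complementary strand. In Nr4a2 they began at bases 51 and 107 on the complementary strand and at bases 128 and 140 on the gene's strand, and in Nr4a3 at bases 20, 46 and 104 on the gene's strand and at base 38 on the complementary strand. Of 32851 promoter windows of 300 bases (250 before the start and 50 from it), 20.8% held TGACG on either strand and 76, or 0.231%, held it at least 4 times. All 4 matches of Nr4a1 were part of the longer TGACGCA, a motif searched after the sequences were seen, which occurred in 2.12% of windows and at least 4 times in 1 window, that of Nr4a1. The full TGACGTCA (1.79% of windows, both strands, overlapping 2 matches to TGACG), the NBRE AAAGGTCA (1.51%) and the CArG box of serum response factor (1.63%) had no match in the 3 windows. Nr4a2 alone held TATAAA (13.6% of windows), on the complementary strand at bases 87 to 92, and a MEF2 box (3.19%) at bases 84 to 93 that overlaps it. These are matches of letters in a window, and no binding was measured.

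The deposited values are log2 intensities, whose medians lay between 7.14 and 7.19 on the 9 arrays. Within groups, the leading principal component carried 46.0% of the variation and set AICAR replicate 1 (score 0.60) apart from AICAR replicate 3 (−0.56). Of 10 Leydig cell markers 8 were measured, with control means from 8.58 (Star) to 11.9 (Nr5a1), and Insl3 and Lhcgr were not analysed here. Control means ran from 6.39 to 9.88 for 7 Sertoli markers, 4.12 to 11.4 for 8 germ cell markers, 4.75 to 7.74 for 6 macrophage markers and 5.18 to 12.0 for 7 endothelial and peritubular markers. These lists held Sox9 at 9.88, Kit at 11.4 and Cdh5 at 12.0. Of these 28, Sox9 and Cd68 were called in limma, both lower with AICAR, though Cd68 against control not without control replicate 2 or 3 (limma adjusted p up to 0.105). The share of all genes called was 5.1% with AICAR against forskolin and 8.72% with AICAR against control. The summed linear intensity of the Sertoli list was 11.1 to 11.2 in control, 11.0 to 11.1 with forskolin and 10.9 with AICAR on the log2 scale. That of the macrophage list was 8.93 to 8.94, 8.99 to 9.03 and 8.77 to 8.92, and that of the Leydig list, which holds Star and Fdx1, 13.8 to 13.9, 14.1 and 13.8 to 13.9. The part of these lists in the results below was not tested.

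Nr4a1 rose 6.22-fold with forskolin and stayed 4.53-fold above control when AICAR was present. Its log2 values were 10.24, 10.44 and 10.40 in the control arrays, 12.98, 13.00 and 13.02 with forskolin and 12.51, 12.50 and 12.60 with forskolin and AICAR. The 3 groups did not overlap, with control lowest, forskolin highest and the AICAR arrays between them, near the forskolin end. The group means were 10.36 ± 0.10, 13.00 ± 0.02 and 12.54 ± 0.05 (SD, n = 3 each). Forskolin raised the value by 2.64 on the log2 scale (SE 0.05, limma adjusted p = 2.39e-08), the largest rise of all 19938 genes. AICAR lowered it by 1.37-fold from the forskolin level (log2 difference −0.46, SE 0.05, limma adjusted p = 0.0017), and the difference from control remained 2.18 (SE 0.05, limma adjusted p = 8.5e-08). The fall with AICAR took away 17.3% of the forskolin rise on the log2 scale. As whole cultures were measured, a lower value in fewer cells and in every cell cannot be told apart.

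**Figure D1:**
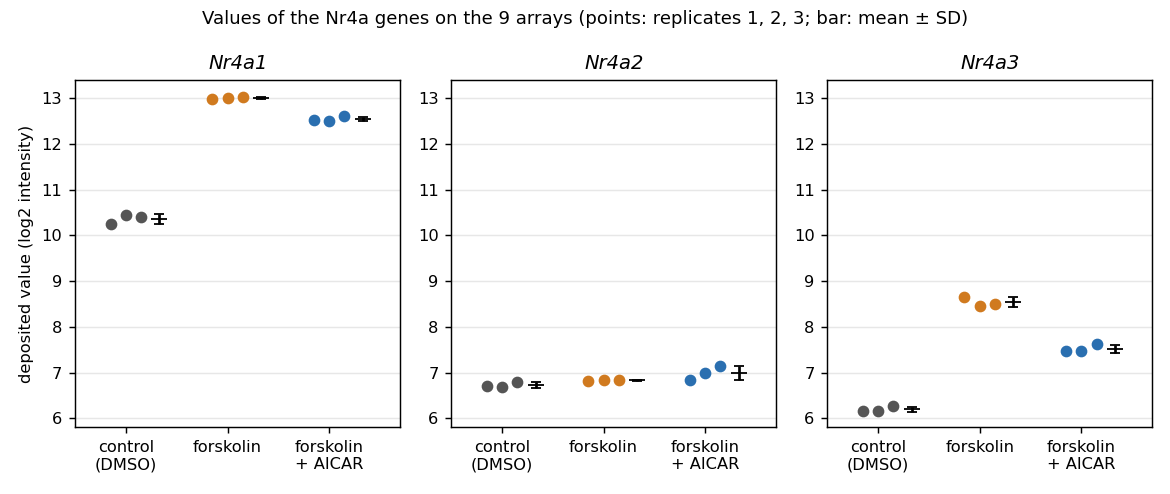
Deposited log2 intensity (vertical axis) of Nr4a1, Nr4a2 and Nr4a3 on the 9 arrays by treatment (horizontal axis), with 1 point per array and the mean ± SD of 3 arrays at the right of each group. Nr4a1 and Nr4a3 are lowest in control, highest with forskolin and between with AICAR, while Nr4a2 stays between 6.68 and 7.14; heights are comparable between groups of a gene, not between genes.

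Nr4a3 rose 5.07-fold with forskolin, and AICAR brought it 2.03-fold down again. Its log2 values were 6.16, 6.15 and 6.26 in control, 8.66, 8.45 and 8.50 with forskolin and 7.46, 7.46 and 7.62 with forskolin and AICAR. The groups did not overlap, and the AICAR arrays lay about midway between the other groups on the log2 scale. The means were 6.19 ± 0.06, 8.54 ± 0.11 and 7.52 ± 0.09 (SD, n = 3 each). The forskolin rise was 2.34 (SE 0.07, limma adjusted p = 1.62e-07), the third largest of all genes after Nr4a1 and the kinase gene Sik1. The AICAR fall was −1.02 (SE 0.07, limma adjusted p = 7.8e-05), the 16th deepest of all genes, whereas that of Nr4a1 was the 255th. With AICAR Nr4a3 was still 2.50-fold above control (1.32, SE 0.07, limma adjusted p = 1.37e-05), and 43.5% of its forskolin rise on the log2 scale was gone. Without detection calls in the deposited values, it is not known whether the Nr4a3 control values stood above background. The 5.07-fold rise and the 43.5% rest on them.

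Nr4a2 passed the test in none of the 3 comparisons. Its log2 values were 6.71, 6.68 and 6.80 in control, 6.82, 6.84 and 6.84 with forskolin and 6.84, 6.98 and 7.14 with forskolin and AICAR. The forskolin arrays lay just above the control arrays, and the AICAR arrays lay above control but overlapped the forskolin values. The means were 6.73 ± 0.06, 6.83 ± 0.01 and 6.99 ± 0.15 (SD, n = 3 each). The forskolin difference of 0.10 (SE 0.07, 95% interval −0.05 to 0.26) did not pass limma's test (adjusted p = 0.86). Neither did the AICAR difference from forskolin (0.15, SE 0.07, 95% interval −0.0020 to 0.31, adjusted p = 0.21) nor, narrowly, that from control (0.26, SE 0.07, 95% interval 0.10 to 0.42, limma adjusted p = 0.0504). The adjusted p against control ran from 0.00286 to 0.136 over 20 alternative settings, of which 6 gave a call. Its highest and lowest AICAR values came from replicates 3 and 1, the arrays at the ends of the component described above. The component was centred within groups, so as a covariate it cannot change a difference between group means. With it the limma adjusted p against control was 0.0124, but the genes called against control also went from 1739 to 5523. Without AICAR replicate 1 the difference was 0.34 against control (limma adjusted p = 0.00694) and 0.23 against forskolin (limma adjusted p = 0.0303). That removal also raised the number of genes called, from 1739 to 4741 and from 1017 to 3324. Over all removals of 1 array the differences went as low as 0.18 and 0.077 (limma adjusted p up to 0.136 and 0.493). The deposited values carry no detection call, so whether the Nr4a2 signal stood above background is not known.

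Set against all genes, 2 of the 3 members were called higher with forskolin, a call that 0.497% of genes received (0.692% in either direction). With AICAR against forskolin the same 2 were called lower, as were 4.12% of genes (5.1% in either direction), and against control both were called higher, as were 3.04% (8.72% in either direction). Groups without overlap are a weaker mark: all 3 members lay above control on every forskolin array, as did 6.85% of genes (14.0% in either direction), and on every AICAR array, as did 15.2% (29.5%). Nr4a1 and Nr4a3 lay below forskolin on every AICAR array, as did 12.2% of genes (23.6%). These shares rest on the arrays used. The number called with forskolin, 138 genes, was 76 to 91 without any 1 control or forskolin array. The number called between AICAR and forskolin, 1017, was 3324 without AICAR replicate 1, 528 without AICAR replicate 2 and 643, 575 or 487 without forskolin replicate 1, 2 or 3. The number called between AICAR and control, 1739, was 4741 without AICAR replicate 1 and between 660 and 1149 without any 1 other array but forskolin replicate 3 (1547). The calls of Nr4a1 and Nr4a3 held in all 3 comparisons under each of the 20 alternatives.

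**Figure D2:**
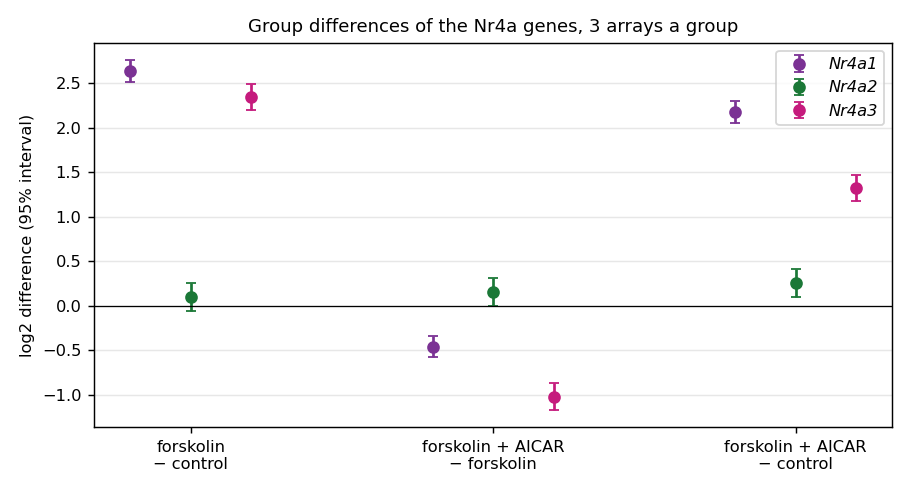
Log2 difference between group means (vertical axis) for the 3 genes in each comparison (horizontal axis), with limma's 95% interval as bars (3 arrays a group). Nr4a1 and Nr4a3 rose with forskolin and fell part of the way with AICAR, and the intervals of Nr4a2 lie between −0.05 and 0.42.

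The members' responses were also set against each other within each array, since the difference of the log2 values of 2 probes on 1 array shows unequal change between groups. From control to forskolin Nr4a1 gained 0.29 on Nr4a3, from 4.17 ± 0.11 to 4.46 ± 0.13 (SD, n = 3). From forskolin to AICAR it gained a further 0.56, to 5.02 ± 0.04, as Nr4a3 fell further. Nr4a1 and Nr4a3 gained 2.53 and 2.24 on Nr4a2 with forskolin and lost 0.61 and 1.18 of it with AICAR. The groups did not overlap in any of these 9 comparisons (3 pairs, 3 comparisons), but how often other gene pairs separate so was not counted. Each of the 9 gave p = 0.1 in a two-sided exact permutation test (adjusted p = 0.1 over the 9), the smallest p that 3 arrays against 3 allow. None could therefore pass a threshold of 0.05. The changes from control rest on Nr4a3 or Nr4a2 control values, which are not known to stand above background.

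The other early response genes give the setting of these changes. Of 26 measured, forskolin raised 11, lowered Klf10 and left 14 uncalled. The median log2 difference was 0.27 against 0.0034 over all genes, of which 0.692% were called. The rise of Egr1 (0.50, limma adjusted p = 0.0234) was not called without control replicate 1 or 3 or without any 1 forskolin array (adjusted p 0.0581 to 0.121), with the replicate block (0.0763) or with only the 2 groups in the fit (0.0611). The fall of Klf10 was not called without control replicate 2 or 3 or without any 1 forskolin array (limma adjusted p up to 0.107). Sik1, a salt-inducible kinase that restrains the CRTC coactivators of CREB, rose by 2.60 (SE 0.07, limma adjusted p = 7.9e-08), between Nr4a1 and Nr4a3. Its log2 values were 7.99, 7.96 and 7.80 in control, 10.43, 10.50 and 10.61 with forskolin and 10.50, 10.42 and 10.55 with AICAR. The forskolin and AICAR arrays of Sik1 overlapped, and their difference was −0.02 (SE 0.07, 95% interval −0.17 to 0.13, limma adjusted p = 0.86), a value of 0.01 after quantile normalization and of 0.00019 after median centring. The AP-1 gene Fosb rose by 1.15, and its AICAR difference of −0.18 did not pass (limma adjusted p = 0.099). Klf4, a Krüppel-like factor, rose by 1.08 and fell by 0.79 with AICAR, and the AP-1 gene Jun (0.61, then −0.81) and the MAP kinase phosphatase gene Dusp1 (0.64, then −0.83) were below their control means with AICAR, without a call against control (limma adjusted p = 0.10 and 0.052). The AP-1 gene Fos went the other way, at 0.74 above control with forskolin and 1.99 with AICAR (limma adjusted p = 0.00010 for the further rise).

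**Figure D3:**
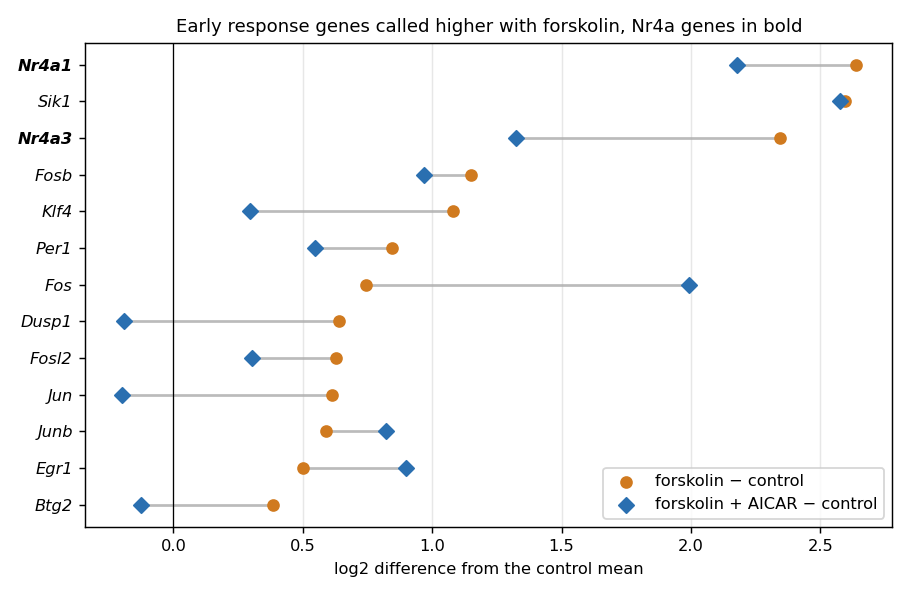
Log2 difference from control (horizontal axis) with forskolin (circles) and with forskolin and AICAR (diamonds) for the early response genes called higher with forskolin, 3 arrays a group. Nr4a1, Sik1 and Nr4a3 have the largest rises; Nr4a3 moves back by 1.02, Nr4a1 by 0.46 and Sik1 by 0.02, and Fos moves up.

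Of these 26 early response genes, 4 were called higher with AICAR against forskolin (Fos, Junb, Egr1 and Nfil3), 7 lower and 15 neither. The list median was −0.05, against 0.02 over all genes, of which 5.1% were called. The calls of Junb (0.23) and Egr1 (0.40) were lost without any 1 forskolin array or AICAR replicate 3, and that of Junb also without AICAR replicate 2 (limma adjusted p up to 0.097 and 0.086). The call of Nfil3 was lost without control replicate 3, forskolin replicate 1 or 2 or AICAR replicate 2 or 3 (limma adjusted p up to 0.0965). Against control 8 were called higher, 2 lower (Klf10 and Ier2) and 16 neither (median 0.18, against 0.02), where 8.72% of all genes were called. Klf10 was not called without control replicate 2 or 3 or AICAR replicate 2 (limma adjusted p up to 0.0788), nor Ier2 when any 1 array was removed except AICAR replicates 1 and 2 (up to 0.122). Among all genes 31 were called at least 1.5-fold higher with forskolin, Nr4a1 and Nr4a3 among them, and AICAR lowered 21 of these, raised 2 (Fos and Junb) and left 18 called above control. The part of the log2 rise lost with AICAR had a median of 51.7% over the 31. It was smaller than that of Nr4a1 (17.3%) in 6 of them and smaller than that of Nr4a3 (43.5%) in 13. The forskolin arrays enter both differences of this share, so it is given as a description.

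Genes were ranked by how closely their values followed those of each member over the 9 arrays (Pearson r, among 211 or 212 genes whose group means spanned at least 1.5-fold). This describes these arrays, which share 3 treatments, and carries no test. Nearest to Nr4a1 were Fosb (r = 0.997), the mRNA decay factor gene Zfp36l1 (0.996), the MAP kinase phosphatase gene Dusp16 (0.989), the angiomotin gene Amotl2 (0.986) and Sik1 (0.985). Fosb went from a mean of 7.77 in control to 8.92 with forskolin and 8.74 with AICAR, and Zfp36l1 from 10.20 to 10.98 and 10.84. Nearest to Nr4a3 were Fdx1 (0.996), which encodes the ferredoxin that passes electrons to steroidogenic P450 enzymes, the mitochondrial carrier gene Slc25a25 (0.992), the AP-1 gene Fosl2 (0.980), Dusp16 (0.976) and the semaphorin gene Sema4c (0.964). Fdx1 had means of 9.79, 10.69 and 10.35 and Slc25a25 of 8.22, 9.26 and 8.80, so both, like Nr4a3, lay between the other groups with AICAR. Nr4a1 and Nr4a3 correlated at 0.956, which put Nr4a3 at rank 10 for Nr4a1 and Nr4a1 at rank 7 for Nr4a3.

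The pattern of Nr4a2 was matched less closely. Its nearest gene was Prp2 (r = 0.822), followed by a separate olfactory receptor gene that is counted but not named (0.817). Next came the early genes Egr1 (0.789), Fos (0.739) and Junb (0.699). The means of all 5 were lowest in control and highest with AICAR. The zinc finger gene Egr1 had means of 7.24, 7.74 and 8.14. Nr4a2 correlated at 0.571 with Nr4a1 and at 0.402 with Nr4a3. With Spearman's rho in place of r, 2 of the 5 nearest genes were shared for Nr4a1, 2 for Nr4a2 and 1 for Nr4a3, and with a smaller span required 5, 0 and 4 were shared.

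**Figure D4:**
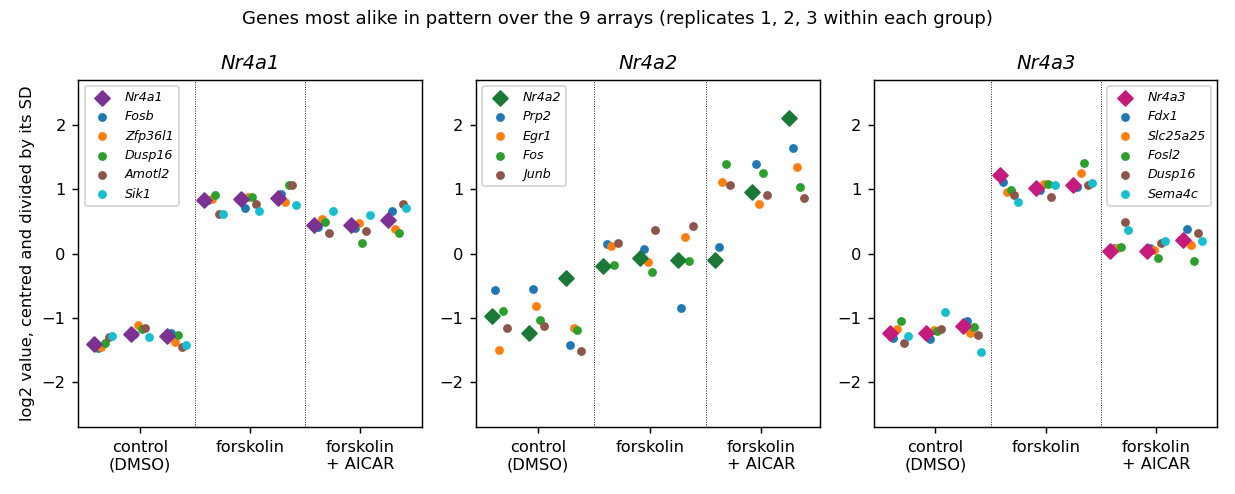
Log2 values on the 9 arrays, centred and divided by their SD over the arrays (vertical axis), for each Nr4a gene (diamonds) and the named genes nearest to it in Pearson r (circles), by treatment (horizontal axis). The genes near Nr4a1 and Nr4a3 (r of at least 0.964) are tight within groups, whereas those near Nr4a2 (r up to 0.822) scatter.

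Among nuclear receptor genes the 2 members stood apart in size. Of 42 other receptor genes measured, forskolin changed 3, where 0.692% of all genes were called. The log2 differences of the 42 ran from −0.48 to 0.38 against 2.64 and 2.34 for Nr4a1 and Nr4a3. Nr0b2 (SHP), a receptor without a DNA-binding domain that represses other receptors, NR4A receptors included, fell in 2 steps. Its log2 values were 10.12, 10.13 and 10.12 in control, 9.61, 9.64 and 9.67 with forskolin and 9.21, 9.27 and 9.36 with AICAR, and no groups overlapped. The step with forskolin was −0.48 (SE 0.04, limma adjusted p = 0.00065) and that with AICAR −0.36 (SE 0.04, limma adjusted p = 0.0017). The haem receptor gene Nr1d1 fell by 0.30 with forskolin, a call lost without any 1 of control replicates 1, 2 and 3 and forskolin replicates 1 and 2 (limma adjusted p up to 0.107). The bile acid receptor gene Nr1h4 was called higher with forskolin (0.38, limma adjusted p = 0.0496) and lost that call without any 1 of the 9 arrays (adjusted p up to 0.20). With AICAR it fell by 0.49 from the forskolin level (limma adjusted p = 0.0035). The median over the 42 was −0.000020 with forskolin, against 0.0034 over all genes.

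With AICAR against forskolin 1 of the 42 other receptor genes was called higher and 3 lower (median 0.05, against 0.02 over all genes). Against control 2 were called higher (Nr6a1 and Rora) and 4 lower (Nr0b2, Nr2f2, Nr2f6 and Ppara), with a median of 0.05, against 0.02. The shares called over all genes in these comparisons were 5.1% and 8.72%. Nr6a1, the germ cell nuclear factor, was the receptor gene with the largest rise against forskolin, by 0.37 (SE 0.04, limma adjusted p = 0.0016), above the 0.15 of Nr4a2. The fatty acid receptor gene Ppara fell by 0.23, not called without forskolin replicate 2 or 3 or AICAR replicate 2 (limma adjusted p up to 0.0574). Against control, Nr2f2 fell by 0.34 and Nr2f6 by 0.21. Those calls were lost without control replicate 2 or 3 (Nr2f2, limma adjusted p up to 0.0617) and without control replicate 1 or 2 or AICAR replicate 2 (Nr2f6, up to 0.0684). Quantile normalization also ended the Nr2f6 call (limma adjusted p = 0.111). Against control the call of Rora was also lost on removing any 1 array except AICAR replicates 1 and 2 (limma adjusted p up to 0.138), and that of Ppara on removing any 1 array except forskolin replicates 1 and 3 and AICAR replicate 1 (up to 0.118).

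**Figure D5:**
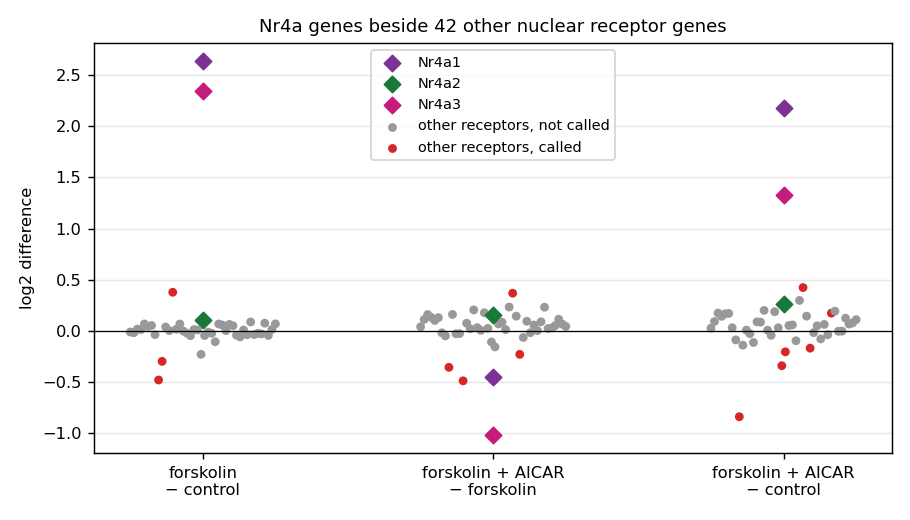
Log2 differences (vertical axis) of Nr4a1, Nr4a2 and Nr4a3 (diamonds) and of 42 other nuclear receptor genes (dots, red where called) in each comparison (horizontal axis). Forskolin raised Nr4a1 and Nr4a3 by 2.64 and 2.34, while the other receptor genes lie between −0.48 and 0.38.

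Of 19 measured partners and coregulators of NR4A receptors, Nr0b2 alone was called with forskolin and alone with AICAR against forskolin. The list medians were −0.02 and 0.03, against 0.0034 and 0.02 over all genes. With AICAR against control Nr0b2 and Nr2f2 were called lower. Of all genes 0.692%, 5.1% and 8.72% were called in these 3 comparisons. The dimer partner Rxra had means of 8.13 in control, 8.10 with forskolin and 8.12 with AICAR, and its differences of −0.03, 0.02 and −0.0064 did not pass limma's test (adjusted p = 0.97, 0.85 and 0.95). Their signs turned in some settings. Nr0b1 (DAX1), a repressor of steroidogenic transcription, differed by −0.04 and −0.05, and Nr5a1 (SF1), which shares target promoters with Nr4a1, by −0.11 and 0.01, without a call (limma adjusted p = 0.94, 0.47, 0.41 and 0.87).

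Transcripts of the factors and kinases upstream of the NR4A genes were followed as well. Of all genes 0.692% were called with forskolin, 5.1% with AICAR against forskolin and 8.72% with AICAR against control. The counts below are to be read beside these shares. Of 21 measured, among them Creb1, the CRTC coactivators, the MEF2 factors and the class IIa histone deacetylases, Sik1 alone was called with forskolin (median 0.0030, against 0.0034 over all genes). With AICAR against forskolin Mef2c alone was called (0.17, limma adjusted p = 0.035), and the call was lost (adjusted p up to 0.121) when any 1 array was removed, except AICAR replicates 1 and 2. Against control Sik1 and Hdac9 (0.18, limma adjusted p = 0.040) were called, the call of the latter being lost (adjusted p up to 0.144) on removal of any 1 array except forskolin replicate 3 and AICAR replicate 1.

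Genes taken as NR4A targets were followed in 3 lists. The counts stand beside calls of 0.692% of all genes with forskolin, 5.1% with AICAR against forskolin and 8.72% with AICAR against control. Of a list of 9 steroidogenic targets, which also holds Pomc, 7 were measured. Forskolin raised Star, the cholesterol transfer protein, alone (median 0.18, against 0.0034 over all genes). Star had log2 values of 8.57, 8.61 and 8.56 in control, 10.55, 10.33 and 10.52 with forskolin and 8.47, 8.38 and 8.40 with AICAR. Thus Star lay below every control array with AICAR, at −0.16 from control without a call (limma adjusted p = 0.11), where Nr4a1 and Nr4a3 lay 2.18 and 1.32 above it. With AICAR against forskolin Star (−2.05, SE 0.06, limma adjusted p = 5.21e-07) and Hsd3b1, which encodes a 3-beta-hydroxysteroid dehydrogenase, fell (median of the list −0.24, against 0.02). The Hsd3b1 difference of −0.59 (limma adjusted p = 0.044) lost its call (adjusted p up to 0.12) on removal of any 1 array except forskolin replicate 2 and AICAR replicate 1. No gene of this list was called against control in limma, and 4 had an unadjusted p under 0.05.

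Of 10 metabolic targets, forskolin raised the glucose-6-phosphatase gene G6pc alone, by 0.63 (SE 0.07, limma adjusted p = 0.0033; median of the list 0.0068), and AICAR lowered it by 0.80 (SE 0.07, limma adjusted p = 0.00041). The AMPK subunit gene Prkag3 was lower with AICAR by 0.23 against forskolin and by 0.24 against control, and lost these calls without any 1 forskolin array or AICAR replicate 3 in the first (limma adjusted p up to 0.0854) and without control replicate 2 or 3 or AICAR replicate 3 in the second (up to 0.0757). Quantile normalization also ended both Prkag3 calls (limma adjusted p = 0.112 and 0.0872). The list medians with AICAR were −0.0072 and −0.03. The shares of all genes called were 0.692% with forskolin, 5.1% with AICAR against forskolin and 8.72% with AICAR against control. None of 4 targets of Nr4a2 in dopamine neurons was called by limma in any comparison. At an unadjusted p under 0.05 there were 0, 1 and 0, the 1 being the dopamine transporter gene Slc6a3, at 0.27 between AICAR and forskolin (limma adjusted p = 0.11, and 0.00703 without AICAR replicate 1).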

How the data were processed

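Total RNA of 9 MA-10 samples was profiled on Affymetrix whole-transcript arrays. The deposited values are log2 intensities per transcript cluster, made with RMA and Partek per the submitters' processing notes, without versions or settings, and the build is not given in the sources used here. RMA normalizes between arrays, so a shift common to all genes would not be seen.

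Probes with 1 gene symbol were used (21789 of 35557, with 1621 carrying several and 12147 none listed), with the brightest over the 9 arrays for 999 genes with more than 1, leaving 19938 genes. All entered 1 model in limma 3.58.1 (R 4.3.3), with Benjamini-Hochberg adjustment over all genes, and a gene was called at an adjusted p under 0.05. The members and the lists were chosen with earlier results of these data known. Named were the members, up to 4 called genes per list and comparison with the largest change (or that with the smallest p), Star, Rxra, Nr5a1, Nr0b1 and Nr0b2, and 5 nearest genes per member. Other genes were named after their values were seen, to complete a count. Of 178 list entries 165 were measured. Promoters were searched with Python 3.11.15, and scipy 1.17.1 gave the exact tests. The fit was tested on simulated data with noise drawn independently for each gene and array. Such data lack the component shared within groups, so that test does not bear on its effect on the calls. The alternatives are those of the closing section. The number of arrays limits the precision.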

Additional observations from a re-analysis of the deposited data

How the results depend on the processing

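The forskolin rise, the AICAR fall and the difference from control of Nr4a1 and Nr4a3 kept direction and call under all 20 alternatives, with ranges of 2.58 to 2.68, −0.49 to −0.44 and 2.12 to 2.22 for Nr4a1 and 2.28 to 2.39, −1.07 to −0.96 and 1.27 to 1.36 for Nr4a3. The replicate block, the filters on the mean, the trend and robust prior, the fit of only the 2 groups and the covariate cannot move these differences. Nor can the settings on several probes, as each gene has 1 probe, or leaving out an array of the group not compared. The ranges thus rest on the other alternatives. Nr4a2 had no call with forskolin under any of the 20. It gained a call against forskolin with array weights (0.15) and a call against control with array weights (0.27), with the first within-group component as a covariate (0.26), when genes with a mean under 5 or under 6 were left out (0.26 each) and with median centring (0.25), and both calls without AICAR replicate 1. Its differences with 1 array left out ran from 0.077 to 0.23 against forskolin and from 0.18 to 0.34 against control. The numbers of genes called with forskolin, with AICAR against forskolin and with AICAR against control were 83, 583 and 874 with a replicate block, 436, 5729 and 6619 with array weights, 222, 3974 and 5523 with the component as a covariate, and 496 and 758 in the latter comparisons with only the 2 groups compared; with 1 array left out they were 76 to 144, 487 to 3324 and 660 to 4741. The share of higher calls moved by over 10 percentage points in these settings. For forskolin (99 higher and 39 lower) they were median centring (86 and 61), array weights (212 and 224), the covariate (134 and 88) and removal of control replicate 2 (69 and 15), forskolin replicate 1 (69 and 13) or forskolin replicate 2 (67 and 14). For AICAR against forskolin (195 and 822) they were quantile normalization (454 and 638), median centring (359 and 655), array weights (3075 and 2654), the covariate (1991 and 1983) and removal of AICAR replicate 1 (1677 and 1647). For AICAR against control (606 and 1133) they were the replicate block (195 and 679), only the 2 groups compared (149 and 609), array weights (3578 and 3041), the covariate (3102 and 2421) and removal of control replicate 3 (123 and 537) or AICAR replicate 1 (2675 and 2066), 2 (157 and 525) or 3 (225 and 852). Signs turned for uncalled differences near 0: Rxra against forskolin with array weights (−0.048) and against control with quantile normalization (0.061), Nr5a1 against forskolin with array weights (−0.0033) and Sik1 against forskolin with quantile normalization (0.011) and median centring (0.00019). With 1 array left out Rxra ran from −0.066 to 0.030 with forskolin, from −0.036 to 0.066 with AICAR against forskolin and from −0.052 to 0.039 against control, Nr5a1 from −0.0043 to 0.025 and Sik1 from −0.063 to 0.030 against forskolin. Over the other named genes and alternatives 109 calls were lost and 17 gained. The replicate block or the fit of only the 2 groups compared ended calls of Cd68, Egr1, Hdac9, Hsd3b1, Ier2, Junb, Klf10, Mef2c, Nfil3, Nr1d1, Nr1h4, Ppara, Prkag3, Prp2, Rora and Sema4c, each a call that removal of 1 array also ended. Causes were not tested. Between forskolin and control same-numbered deviations correlated at 0.01 to 0.33 across genes, with AICAR at −0.41 to 0.08. Not every array matched its number best. A shared batch was not tested. The block changed no Nr4a call.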

Other observations

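The deposited Nr4a3 value was the same, 7.463044, on AICAR replicates 1 and 2, as it was for 4.07% of all 35557 probes between these arrays. Over the 9 pairs of arrays within groups that share ran from 2.42% to 9.14%. The SD of 0.09 for Nr4a3 with AICAR rests on 2 distinct values. No other member had an equal value on 2 arrays of a group.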
